A study of Mus musculus with 10 samples.

Results

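The effect of losing Nrf2 was measured in mouse hepatocytes that already lacked p65, by setting the 3 libraries labelled DKO against the 2 libraries labelled p65 KO. These are 5 of the 10 RNA-seq libraries of the series, each made from the hepatocytes of 1 mouse, and they were chosen by their genotype labels alone. Of the 21939 genes in the deposited table, 13641 had at least 10 counts summed over the 10 libraries and were tested. p65 KO mice carried floxed alleles of Rela, the gene that encodes p65, and DKO mice carried floxed alleles of both Rela and Nfe2l2, the gene that encodes Nrf2. The other 5 libraries are the same step taken with p65 present, with 2 Nrf2 KO mice (Nrf2 flox/flox) set against 3 control mice (C57BL6/j without floxed alleles). All 10 mice were male, 8 to 9 weeks old and injected with AAV8Cre, an adeno-associated virus in which the hepatocyte-specific thyroxine-binding globulin promoter drives Cre recombinase, so that the controls carried the virus too. Hepatocytes were isolated 12 days later by Liberase perfusion, low-speed centrifugation and Percoll, without a sort on any marker, and all mice were killed in the morning. The mice of a genotype are separate animals, and the precision of each comparison rests on the 2 or 3 mice of a group.

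Nrf2 is a transcription factor that Keap1 holds in the cytoplasm and marks for degradation until oxidants or electrophiles modify Keap1. Freed Nrf2 pairs with small Maf proteins on antioxidant response elements and drives genes for glutathione synthesis, for the conjugation and export of foreign compounds and for the reduction of quinones, most of them strongly expressed in hepatocytes. p65 is the main transactivating subunit of NF-κB, which induces cytokine, adhesion, acute phase and survival genes. The comparison asks what a hepatocyte that cannot use p65 loses or gains when Nrf2 is taken away as well.

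The 5 libraries held between 33707165 and 40103546 estimated counts, and the 10 libraries between 33707165 and 49897382. Values below are normalized counts, which are counts divided by a size factor from TMM scaling, and fold changes are given as log2 ± SE. A gene was called when edgeR's quasi-likelihood test gave a Benjamini-Hochberg adjusted p of at most 0.05 and the log2 fold change was at least 1 in either direction. Albumin (Alb), the main hepatocyte secretory product, stood at 3119370 and 2824010 in p65 KO and at 3150640, 3184320 and 3232010 in DKO. The summed level of 12 hepatocyte markers, most of it albumin, lay between 4187800 and 4644930 in the 5 libraries. All 3 DKO sums were above both p65 KO sums. Of the 12 markers 2 were called lower (Glul and Cyp2e1) and 1 higher, beside 0.968% and 0.814% of all genes tested. Nnt, which is disrupted in the C57BL/6J substrain, read 2581 and 1941 in p65 KO, 1333, 698 and 1174 in DKO and 703 to 767 in control, and neither Nnt nor Wdfy1, another substrain marker, was called (Nnt -1.08 ± 0.287, adjusted p = 0.0607). In 4 of the 15 alternative settings described below Nnt was called lower in DKO. The line a mouse came from cannot be told apart from its genotype.

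The targeted genes gave no check of the labels, because the counts cover whole genes and the deleted part is not given in the sources used here. Nfe2l2 read 1993 and 1997 in p65 KO and 4111, 3434 and 5240 in DKO. Its transcript count was thus higher in every DKO library, by 1.09 ± 0.164 (adjusted p = 0.00903), and it was also higher in Nrf2 KO (4739 and 5005) than in control (1990 to 2318), by 1.21 ± 0.156. Without p65 KO mouse 1, p65 KO mouse 2 or DKO mouse 3 the value for DKO was 1.09, 1.1 and 0.92, and the call was lost. Rela, deleted in both groups compared, read 1183 and 1209 in p65 KO and 1488, 1241 and 1034 in DKO (0.07 ± 0.138, adjusted p = 0.8). No gene was called among the 48 tested within 5 Mb of Nfe2l2 or the 208 tested within 5 Mb of Rela.

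The promoter windows below show the letters searched for in the genes that fell together. They are RefSeq windows of the GRCm38.p6 build, from 250 bases before to 50 bases after the start of the gene, written 5′ to 3′ on the strand of the gene. Ugdh, which makes the sugar donor for glucuronidation, is shown because it was the only 1 of the 18 detoxification genes called lower with a window whose letters held the antioxidant response element core TGACNNNGC. Its window on chr5:65435793-65436092, minus strand, holds the core at position -132 on the strand of the gene and at -94 on the opposite strand, both in capitals.
Ugdh: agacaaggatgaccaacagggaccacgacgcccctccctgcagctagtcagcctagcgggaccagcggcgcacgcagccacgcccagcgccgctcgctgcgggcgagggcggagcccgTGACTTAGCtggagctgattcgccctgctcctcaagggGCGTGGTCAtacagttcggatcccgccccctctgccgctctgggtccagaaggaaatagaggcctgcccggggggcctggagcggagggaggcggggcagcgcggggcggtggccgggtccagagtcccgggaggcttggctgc
The next windows belong to interferon-inducible GTPases that fell in DKO, and the capitals mark the match to the core of the interferon-stimulated response element, which was searched on both strands and matched as TTTCACTTTC in Gbp2 and, on the opposite strand, as GAAACTGAAA in Igtp and Irgm2. The windows lie at chr11:58199306-58199605 (Igtp, match at -34), chr11:58214727-58215026 (Irgm2, match at -64) and chr3:142620413-142620712 (Gbp2, match at -59), all on the plus strand.
Igtp: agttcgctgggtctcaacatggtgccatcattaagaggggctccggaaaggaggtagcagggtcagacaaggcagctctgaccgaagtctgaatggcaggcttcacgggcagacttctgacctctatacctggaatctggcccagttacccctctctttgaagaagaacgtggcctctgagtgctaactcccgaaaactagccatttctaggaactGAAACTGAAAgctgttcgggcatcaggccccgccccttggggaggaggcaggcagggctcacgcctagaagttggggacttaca
Irgm2: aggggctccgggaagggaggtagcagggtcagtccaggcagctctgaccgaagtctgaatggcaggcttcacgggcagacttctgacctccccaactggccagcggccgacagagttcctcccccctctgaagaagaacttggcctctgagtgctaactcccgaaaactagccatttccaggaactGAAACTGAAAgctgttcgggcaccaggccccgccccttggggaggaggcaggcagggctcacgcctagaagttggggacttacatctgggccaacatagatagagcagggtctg
Gbp2: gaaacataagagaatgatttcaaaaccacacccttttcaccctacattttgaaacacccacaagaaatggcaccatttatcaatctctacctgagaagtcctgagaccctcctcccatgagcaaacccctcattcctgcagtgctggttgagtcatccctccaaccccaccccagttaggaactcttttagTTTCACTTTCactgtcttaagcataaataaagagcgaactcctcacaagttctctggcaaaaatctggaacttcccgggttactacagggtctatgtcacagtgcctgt
The last pair belongs to the major urinary protein genes that rose most, Mup15 (chr4:61439655-61439954) and Mup17 (chr4:61595783-61596082), both on the minus strand. Aligned over 303 positions the windows shared 297 letters, with 0 substitutions and 6 gap letters, and the capitals in Mup17 mark letters that Mup15 lacks inside the alignment.
Mup15: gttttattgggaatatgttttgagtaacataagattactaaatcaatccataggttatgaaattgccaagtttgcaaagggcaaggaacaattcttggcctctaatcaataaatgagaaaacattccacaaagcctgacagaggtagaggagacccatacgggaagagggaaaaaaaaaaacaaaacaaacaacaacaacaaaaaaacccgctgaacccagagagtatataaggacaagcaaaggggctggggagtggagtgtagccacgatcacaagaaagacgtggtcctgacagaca
Mup17: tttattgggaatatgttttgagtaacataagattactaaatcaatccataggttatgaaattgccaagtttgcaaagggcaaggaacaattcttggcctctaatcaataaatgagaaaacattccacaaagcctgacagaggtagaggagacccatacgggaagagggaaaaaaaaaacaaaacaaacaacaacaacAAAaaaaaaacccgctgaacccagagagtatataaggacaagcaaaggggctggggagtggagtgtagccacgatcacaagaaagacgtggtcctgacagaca

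Added loss of Nrf2 changed 243 genes, which is 1.78% of those tested, with 132 called lower in DKO (0.968%) and 111 called higher (0.814%). Every count of list members called below stands beside these shares, and the lists were chosen with earlier results of these data known. At an adjusted p of at most 0.05 with any fold, 281 genes were lower (2.06%) and 280 were higher (2.05%), and 3066 genes had an unadjusted p under 0.05. The 3 DKO libraries did not overlap the 2 p65 KO libraries for all 243 called genes, against 38.6% of all genes tested. The median over all genes was 0.00, and 226 of the called genes had a mean of at least 50 counts. Scaling to library totals instead of TMM moved the median by -0.27, and the called genes were then 82.9% lower instead of 54.3%, so that directions below are relative to TMM.

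The number of calls depended on the libraries used, as 70 genes were called without p65 KO mouse 1, 72 without p65 KO mouse 2, 112 without DKO mouse 1, 294 without DKO mouse 2 and 237 without DKO mouse 3. Of the 74 called genes that the naming rule picked, 21 were called in all 15 alternative settings. The 18 of these that fell were Abcc3, Aox1, Ces1b, Ces1g, Corin, Fgf21, Gm4841, Gsta1, Gsta13, Gsta2, Gstm1, Gstm3, Hsd3b3, Nr1i3, Serpina3c, Ugt1a6b, Ugt2b35 and Ugt2b5, and the 3 that rose were Mup12, Mup7 and Plekhb2. Of the same 74 calls, 47 were lost without p65 KO mouse 1, 44 without p65 KO mouse 2, 27 without DKO mouse 1, 9 without DKO mouse 2 and 11 without DKO mouse 3. No call changed its direction in any setting. Without a p65 KO mouse that group holds 1 mouse, so a call can be lost while its value hardly moves. Ugdh was at -1.325 and -1.324 without p65 KO mouse 1 and 2, beside -1.324 with both. Other values did move, such as Socs3, at -1.99 without p65 KO mouse 1 and at -3.56 with both.

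Some genes of drug and toxin handling fell in DKO. Of 109 tested members of 7 detoxification lists, 22 were called lower and 0 higher, beside 0.968% and 0.814% of all genes tested. A point estimate below 0 was found for 83 of the 109, beside 6806 of all 13641 genes, and the median was -0.42 beside 0.00 over all genes. Without p65 KO mouse 1 the count was 14, and without the other libraries it lay between 16 and 26. The lists were glutathione and thioredoxin genes, glutathione S-transferases, enzymes for quinones, aldehydes and epoxides, carboxylesterases, glucuronidation genes, NADPH supply and efflux transporters.

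Glutathione S-transferases join glutathione to electrophiles, and 5 of 23 tested were called lower (median -0.31). Gsta13, an alpha-class member, read 171 and 263 in p65 KO and 0, 4.49 and 0 in DKO. It was nearly absent from every DKO library and from both Nrf2 KO libraries, which were at 0 (-7.08 ± 0.653, adjusted p = 0.000908). Gsta1 read 213 and 365 against 0, 21.3 and 14.9 (-4.59 ± 0.609), and Gsta2 read 891 and 1112 against 219, 370 and 212 (-1.91 ± 0.218). The most abundant member was Gstm1 of the mu class, at 68984 and 62012 in p65 KO and at 9477, 9883 and 13929 in DKO. Its DKO mean was 16.9% of the p65 KO mean, with wide separation between the groups (-2.56 ± 0.197, adjusted p = 0.000164). Gstm3 fell from 6126 and 6020 to 821, 655 and 1529 (-2.60 ± 0.367). Members of these classes are close in sequence and reads can be split among them, so their summed levels are given as well. The summed Gstm genes read 84603 and 78384 in p65 KO and 16857, 16064 and 24010 in DKO, a log2 difference of -2.13, with the smallest p that 3 against 2 mice allow in a 2-sided exact permutation test (p = 0.1). The summed Gsta genes read 38550 and 51253 against 21027, 14337 and 33000 (log2 difference -1.05, exact permutation p = 0.2).

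Among enzymes that reduce or hydrolyse reactive compounds, 6 of 22 were called lower (median -0.66). Aox1, an aldehyde oxidase, read 4093 and 3435 in p65 KO and 770, 1104 and 947 in DKO (-2.0 ± 0.193, adjusted p = 0.000886). Nqo1, the quinone reductase most often used as a readout of Nrf2, read 199 and 207 against 52.6, 71.8 and 103. All 3 DKO libraries were below both p65 KO libraries, although Nqo1 is sparse in these cells (-1.42 ± 0.266, adjusted p = 0.0202). Entpd5, a nucleoside diphosphatase of the endoplasmic reticulum, fell to 39.1% of its p65 KO mean, and Akr1c14, an aldo-keto reductase that acts on steroids, to 46.7%. Ephx1, the microsomal epoxide hydrolase, read 13650 and 12848 against 5807, 6295 and 7493 (-1.02 ± 0.189). Hmox1, which breaks down heme, read 680 and 438 against 262, 212 and 248. Its DKO level was near that of control, at 181 to 219, rather than below it. Without p65 KO mouse 1, Hmox1 was -0.86 and not called, and Nqo1 and Ephx1 each lost their call without either p65 KO mouse and without DKO mouse 1, Ephx1 also without DKO mouse 2. Entpd5 lost its call without either p65 KO mouse, and Akr1c14 without DKO mouse 1, where it was at -0.99.

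**Figure D1:**
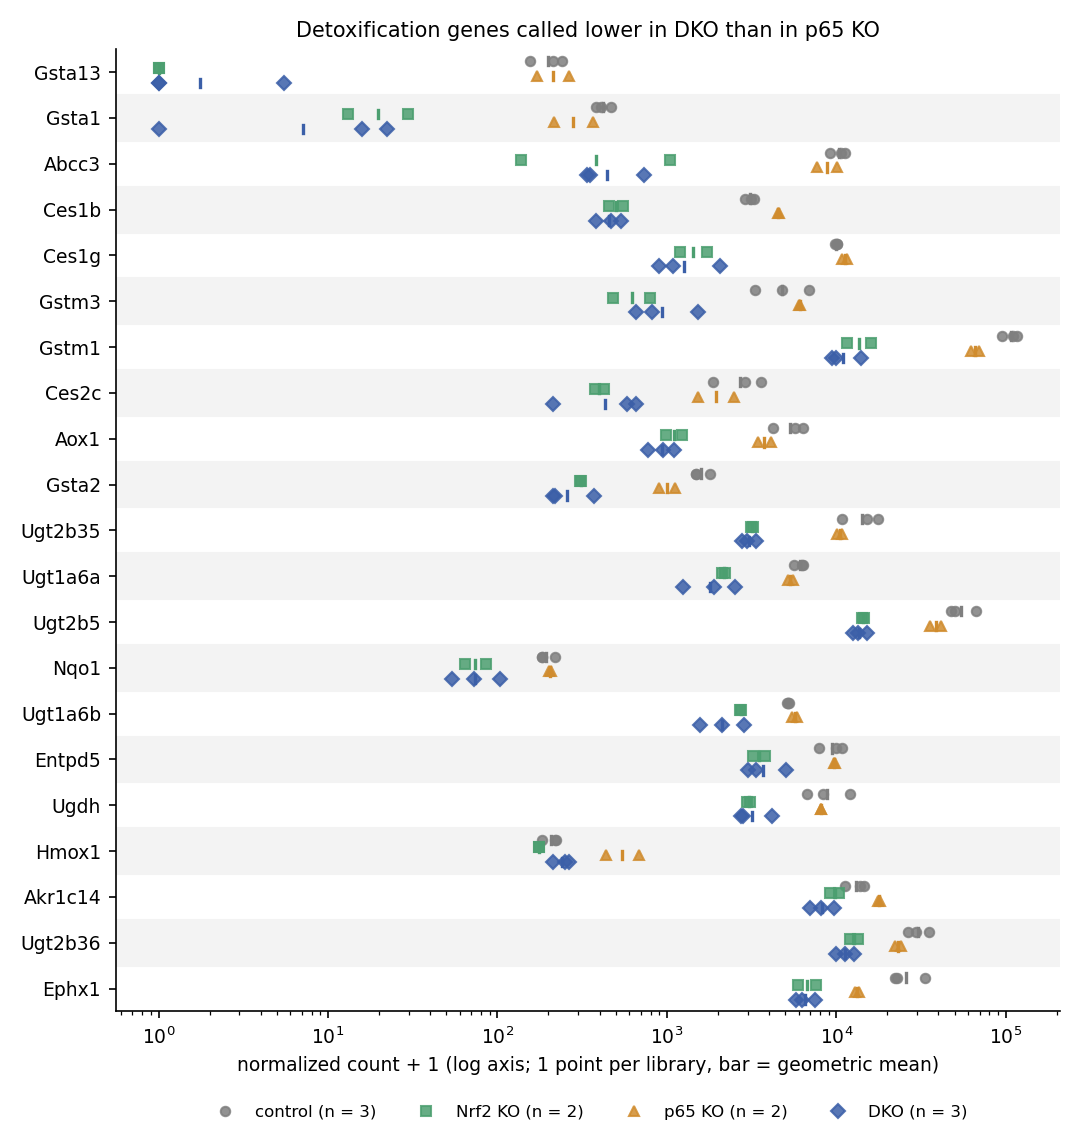
Normalized counts plus 1 (log axis) of the 21 detoxification genes that were called lower in DKO and had a mean of at least 50, a row for each gene. Points are libraries of the 4 genotypes and bars are geometric means. In each row the 3 DKO points lie to the left of the 2 p65 KO points, with Gsta13 and Gsta1 farthest apart.

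Carboxylesterases hydrolyse esters of drugs and lipids, and 3 of 13 were called lower (median -0.45). Ces1b read 4579 and 4523 in p65 KO and 381, 466 and 536 in DKO. This was a 9.88-fold difference between tight groups, and among the detoxification genes it had the smallest adjusted p (-3.30 ± 0.146, adjusted p = 8.35e-07). Ces1g read 10831 and 11611 against 896, 1083 and 2042 (-3.07 ± 0.289, adjusted p = 0.000791), and Ces2c read 1522 and 2488 against 654, 211 and 577, a call lost without either p65 KO mouse. The summed Ces1 genes, which share sequence, read 149127 and 161708 against 85637, 99697 and 107851 (log2 difference -0.67, exact permutation p = 0.1). The summed Ces2 genes differed by -0.22.

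Glucuronidation adds a sugar acid that makes compounds soluble, and 6 of 17 genes were called lower (median -0.46). Ugt2b35 read 10804 and 10095 in p65 KO and 3366, 2791 and 2965 in DKO (-1.78 ± 0.176, adjusted p = 0.000908). Ugt2b5, the most abundant of those called, read 35847 and 41603 against 12530, 15221 and 13343 (-1.50 ± 0.16), and Ugt2b36 differed by -1.04. The summed Ugt2b genes stood at 101815 and 116433 in p65 KO and 52817, 54129 and 57531 in DKO (log2 difference -0.99, exact permutation p = 0.1). Ugt1a6a and Ugt1a6b, transcripts of the Ugt1 locus that share their last exons and therefore cannot be read as separate measurements, fell by 1.51 and 1.38. Ugt2b36 lost its call without p65 KO mouse 2 or DKO mouse 1, and Ugt1a6a without p65 KO mouse 1. Ugdh, whose window is printed above, read 8111 and 8114 in p65 KO and 2804, 2727 and 4188 in DKO (-1.32 ± 0.232, adjusted p = 0.016), and lost its call without either p65 KO mouse or without DKO mouse 1.

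Of 14 efflux transporters, 2 were called lower (median -0.69). Abcc3, the pump that moves conjugates from hepatocytes back to blood, read 10123 and 7721 in p65 KO and 337, 727 and 352 in DKO. The DKO mean was 5.29% of the p65 KO mean, and Nrf2 KO libraries were as low, at 1048 and 137 (-4.24 ± 0.622, adjusted p = 0.0086). Abcc12, the other transporter called, chosen here after its values were seen, was at or under 3 counts in DKO and at least 7.78-fold lower. In contrast, no glutathione or thioredoxin gene was called among 12 tested (median -0.25). Gclc, chosen after its values were seen, encodes the catalytic subunit that limits glutathione synthesis, and read 10823 and 7563 against 5111, 5326 and 4600, short of the fold threshold (-0.87 ± 0.184, adjusted p = 0.0299). The peroxiredoxins Prdx1 and Prdx6, the most abundant of that list, differed by -0.19 and -0.11 (adjusted p = 0.502 and 0.686). Of 8 genes that supply NADPH, 0 were called (median 0.18).

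The antioxidant response element core was present in 12.4% of all 32851 RefSeq windows and in 16.8% of the 10555 genes tested that had a window. It was present in 16 of 92 tested detoxification genes with a window (17.4%) and in 1 of 18 of those called lower (5.56%). Both strands were searched, and elements outside these 300 bases were not looked for.

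The same deletion was measured with p65 present, in libraries that do not enter the comparison of DKO with p65 KO. Nrf2 KO differed from control in 75 genes (0.55%), with 60 lower (0.44%) and 15 higher (0.11%). The genes called lower in both settings numbered 24, which is 18.2% of the 132 lower in DKO and 40% of the 60 lower in Nrf2 KO. Their medians were -2.31 against p65 KO and -2.32 against control, and for 0 of the 24 did the difference between the effects have an adjusted p of at most 0.05. As the 24 were picked for a call in both settings, close medians and a lack of differences follow in part from that choice. Genes called higher in both numbered 2, and 2 were called in opposite directions.

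Of these 24 genes, 18 belonged to the detoxification lists. In Nrf2 KO, 26 of the 109 were called lower (median -0.49), and none of the 109 had a difference between the effects at an adjusted p of at most 0.05. Gstm1, for example, differed by -2.56 without p65 and by -2.96 ± 0.223 with it, and Abcc3 by -4.24 and -4.13 ± 0.707. Ces1b fell more without p65 by point estimate, -3.30 against -2.62 ± 0.159, and the difference of -0.68 ± 0.202 missed the threshold (adjusted p = 0.194). Ephx1 went the other way, -1.02 against -1.96 ± 0.206 (difference 0.93 ± 0.274, adjusted p = 0.188). Degs1l, a gene similar to the ceramide desaturase Degs1, read 647 and 569 in p65 KO and 38.9, 51.6 and 135 in DKO, and fell in Nrf2 KO as well (-3.02 ± 0.446 and -4.46 ± 0.541), with its call in DKO lost without p65 KO mouse 1.

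**Figure D2:**
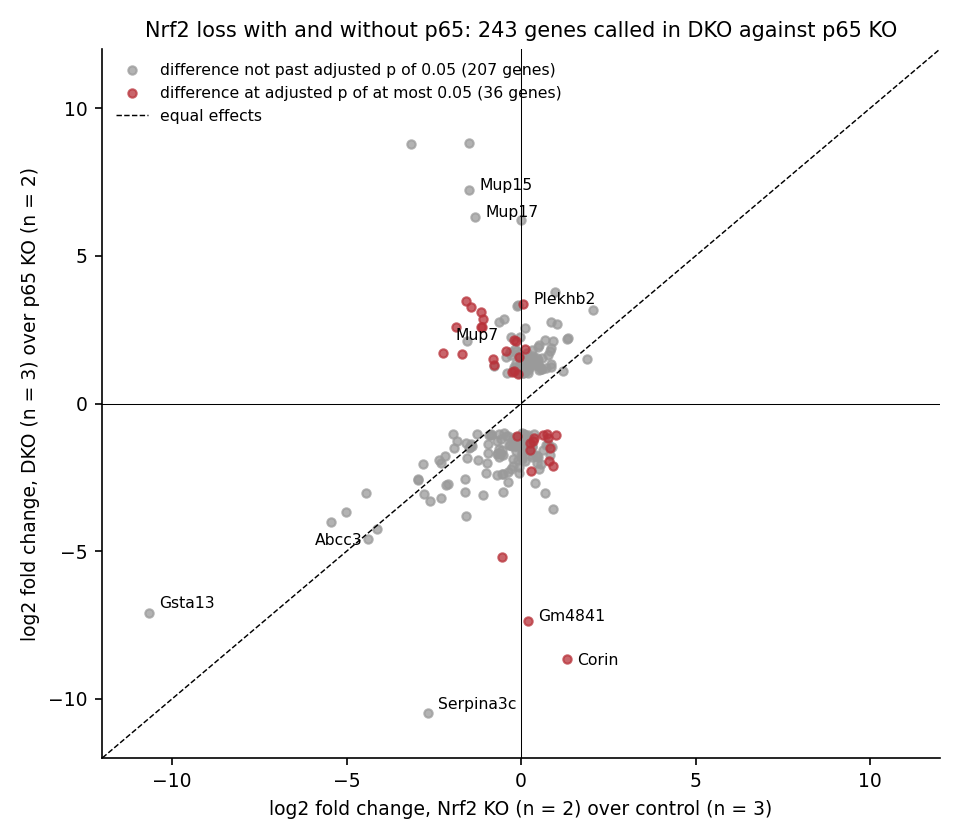
Log2 fold change of Nrf2 KO over control (x axis) and of DKO over p65 KO (y axis) for the 243 genes called in DKO, a point for each gene. The 36 red points have a difference between the effects at an adjusted p of at most 0.05, the 207 grey points do not, and the dashed line marks equal effects. Red points lie away from the line, among them Gm4841 and Corin far below it and a group of major urinary protein genes above it at negative x.

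The difference between the effects passed the test for 62 genes with the fold threshold (0.455%) and for 64 without it (0.469%), of which 28 were more negative and 36 more positive without p65. The 62 became 8 without Nrf2 KO mouse 2, 10 without p65 KO mouse 1, 12 without p65 KO mouse 2, 19, 25 and 39 without control mouse 1, 2 and 3, and 119 without DKO mouse 2. Among the genes called in DKO, 16 of 132 lower and 20 of 111 higher had such a difference. The call and the difference use the same DKO and p65 KO libraries, so these shares follow in part from the choice of genes. The point estimate in Nrf2 KO had the same sign for 80 of 132 genes lower in DKO (median -0.22) and for 60 of 111 genes higher in DKO (median 0.06).

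The 3 largest falls were in genes that p65 KO hepatocytes expressed and the other genotypes barely did. Serpina3c, a serine protease inhibitor of the antichymotrypsin group, read 4586 and 5314 in p65 KO and 6.31, 1.12 and 2.29 in DKO. It was at 1.87 to 9.83 in control, so that DKO and control lay in the same low range (-10.49 ± 0.377, adjusted p = 1.39e-07). With a Nrf2 KO mean of 0.808, the difference between the effects for Serpina3c, -7.81, missed the threshold (adjusted p = 0.179). Gm4841, a predicted interferon-inducible GTPase, read 4480 and 5104 against 27.4, 38.2 and 20.6, and 9.94 to 23.6 in control. The DKO level was 0.599% of the p65 KO level (-7.38 ± 0.257, adjusted p = 1.39e-07), while Nrf2 loss with p65 present left it at 24.7 and 17.8 (difference between the effects -7.58 ± 0.465, adjusted p = 7.89e-05). Corin, a transmembrane protease that processes natriuretic peptides, read 231 and 168 in p65 KO and 0, 1.12 and 0 in DKO. With DKO at or under 3 counts, Corin was at least 60.1-fold lower (adjusted p = 0.000908). These 3 genes kept their calls in all 15 alternative settings.

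**Figure D3:**
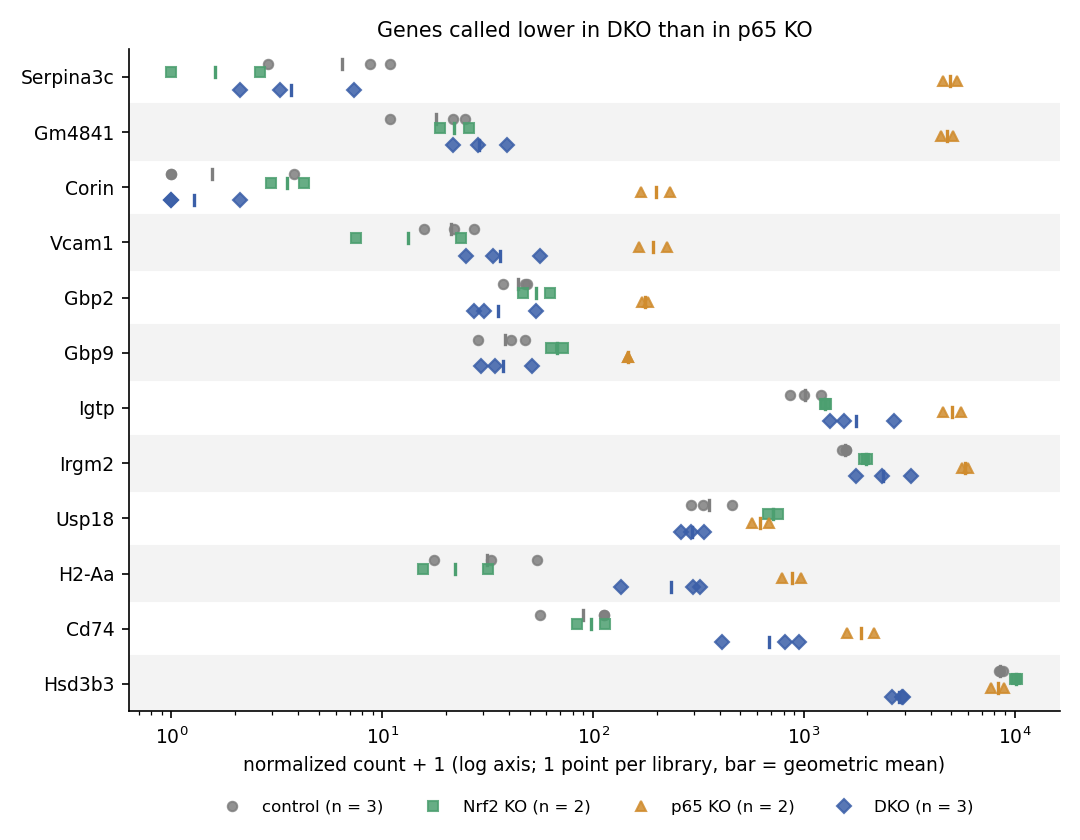
Normalized counts plus 1 (log axis) of 12 genes in the 10 libraries, a row for each gene, with points for libraries and bars for geometric means of the 4 genotypes. Serpina3c, Gm4841 and Corin are high in the 2 p65 KO libraries, and the interferon-inducible genes Gbp2, Gbp9, Igtp and Irgm2 are lower in all 3 DKO libraries than in both p65 KO libraries, whereas Hsd3b3, whose close copy Hsd3b2 went the opposite way, is lower in DKO than in the other 3 genotypes.

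Part of the interferon response genes fell in DKO. Of 37 tested, 13 were called lower and 0 higher, against 0.968% of all genes called lower, and 33 had a point estimate below 0 (median -1.02). The count was 2 without p65 KO mouse 1, 1 without p65 KO mouse 2, 6 without DKO mouse 1, 14 without DKO mouse 2 and 9 without DKO mouse 3, and 3 when DKO and p65 KO libraries were fitted alone, while the median stayed between -0.89 and -1.26 when libraries were left out. The median was 0.29 in Nrf2 KO against control, 1.04 in p65 KO against control and 0.05 in DKO against control, the last 2 of which share libraries with the comparison described here. For 6 of the 37 the difference between the effects had an adjusted p of at most 0.05.

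Guanylate-binding proteins and immunity-related GTPases attack the vacuoles of intracellular pathogens. Gbp2 read 170 and 181 in p65 KO and 29.5, 52.7 and 26.3 in DKO, beside 36.4 to 47.5 in control (-2.28 ± 0.329, adjusted p = 0.00822; difference between the effects -2.56 ± 0.468). Gbp9 read 145 and 146 against 28.4, 50.5 and 33.2 (-1.96 ± 0.323, adjusted p = 0.0121). Irgm2 read 5645 and 6009 against 2338, 3219 and 1767, and Igtp read 4547 and 5581 against 1540, 2666 and 1325 (-1.26 ± 0.189 and -1.46 ± 0.251). DKO mouse 2 had the highest value of the 3 in each of these genes and still lay below both p65 KO mice. Igtp and Irgm2 overlap on the same strand, so reads of the shared part may be split between them. Usp18, which removes the ubiquitin-like modifier ISG15 and restrains the interferon receptor, had effects of opposite sign in the 2 settings. It read 685 and 563 against 333, 291 and 260 here (-1.08 ± 0.189), and was higher in Nrf2 KO than in control by just under the fold threshold, and so not called there (1.00 ± 0.187, adjusted p = 0.0424; difference -2.08 ± 0.266, adjusted p = 0.0106). Calls of Gbp9, Irgm2, Igtp and Usp18 were lost without either p65 KO mouse, that of Gbp2 without p65 KO mouse 2, that of Igtp also without DKO mouse 1 and that of Usp18 also without DKO mouse 3.

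The core of the interferon-stimulated response element was in 3.44% of all windows and 3.93% of tested genes with a window. It was in 19 of 27 tested interferon genes with a window (70.4%) and in 12 of 104 genes called lower with a window (11.5%), beside 2 of 84 called higher (2.38%). Among these 12 were 6 of the 9 interferon genes called lower with a window (66.7%). The interferon genes are known for this element, so their share describes the list and not the change. The gamma-activated sequence TTCNNNGAA, which can overlap the other motifs, was in 8.30% of all windows and in 10 of 27 interferon genes (37.0%).

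Genes that present antigen on MHC class II are not typical of hepatocytes, and 2 of 9 tested were called lower while all 9 had point estimates below 0 (median -1.38). H2-Aa, an MHC class II alpha chain, read 972 and 785 in p65 KO and 296, 321 and 134 in DKO, all far above the 16.6 to 53.1 of control (-1.81 ± 0.391, adjusted p = 0.0337). Cd74, the invariant chain, read 2146 and 1603 against 944, 811 and 410 (-1.38 ± 0.327, adjusted p = 0.0432). These calls held in few settings, with 0 called without p65 KO mouse 1, without p65 KO mouse 2 or without DKO mouse 1, and 1 without either other DKO mouse. MHC class I and immunoproteasome genes had 0 of 18 called (median -0.28), and H2-K1 differed by -0.32 (adjusted p = 0.268).

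Markers of Kupffer, sinusoidal endothelial and stellate cells were lower in DKO along with MHC class II and some interferon genes. The sums of B cell, T and NK cell and globin genes were higher. All 12 Kupffer cell markers had point estimates below 0 (median -1.21), 1 of them called, and their summed level was 6190 and 4516 in p65 KO, 2905, 2041 and 1715 in DKO and 368 to 957 in control. Cd5l, which Kupffer cells secrete, read 1519 and 1033 against 519, 443 and 365. In such bulk libraries fewer cells of a type and less RNA per cell cannot be told apart. All 10 markers of sinusoidal endothelial cells had point estimates below 0 with 0 called (median -0.89), and their sum was 5254 and 3899 against 2485, 2926 and 2120, beside 734 to 1621 in control. All 9 tested stellate cell markers had point estimates below 0 (median -2.03), with the matrix genes Col1a2 and Dcn called, and their sum was 1723 and 1747 against 299, 756 and 277, beside 150 to 353 in control. The names of Cd5l, Col1a2 and Dcn were chosen after their values were seen. Monocyte and dendritic cell markers summed to 699 and 540 in p65 KO and 388, 399 and 277 in DKO. The part these cells have in the MHC class II and interferon values was not tested. Summed globin genes stood at 94.5 and 35.9 in p65 KO and at 1141, 402 and 164 in DKO. The list of red cell markers, of which 0 of 5 tested were called, summed to 3133 and 3516 against 5613, 4939 and 4730. B cell markers summed to 62 and 81.3 against 468, 183 and 351, T and NK cell markers to 43.7 and 44.4 against 169, 96.5 and 79, neutrophil markers to 53.8 and 12.3 against 42.1, 48.2 and 10.3, and cholangiocyte markers to 347 and 444 against 350, 289 and 197. Of 8 tested T and NK cell markers 1 was called higher. Ly6g of the neutrophil list and Krt19 and Cftr of the cholangiocyte list were at 0 in all 5 libraries, and no Kupffer, endothelial or stellate marker was. Each of these sums was tested with an exact permutation test, which cannot go below p = 0.1 with 3 against 2 mice. Kupffer, endothelial, monocyte and dendritic, red cell, B cell and T and NK cell sums reached that limit (exact permutation p = 0.1). Stellate and globin sums did not, although their groups did not overlap (exact permutation p = 0.2). The groups overlapped for the cholangiocyte sum (exact permutation p = 0.3) and for the neutrophil sum.

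**Figure D4:**
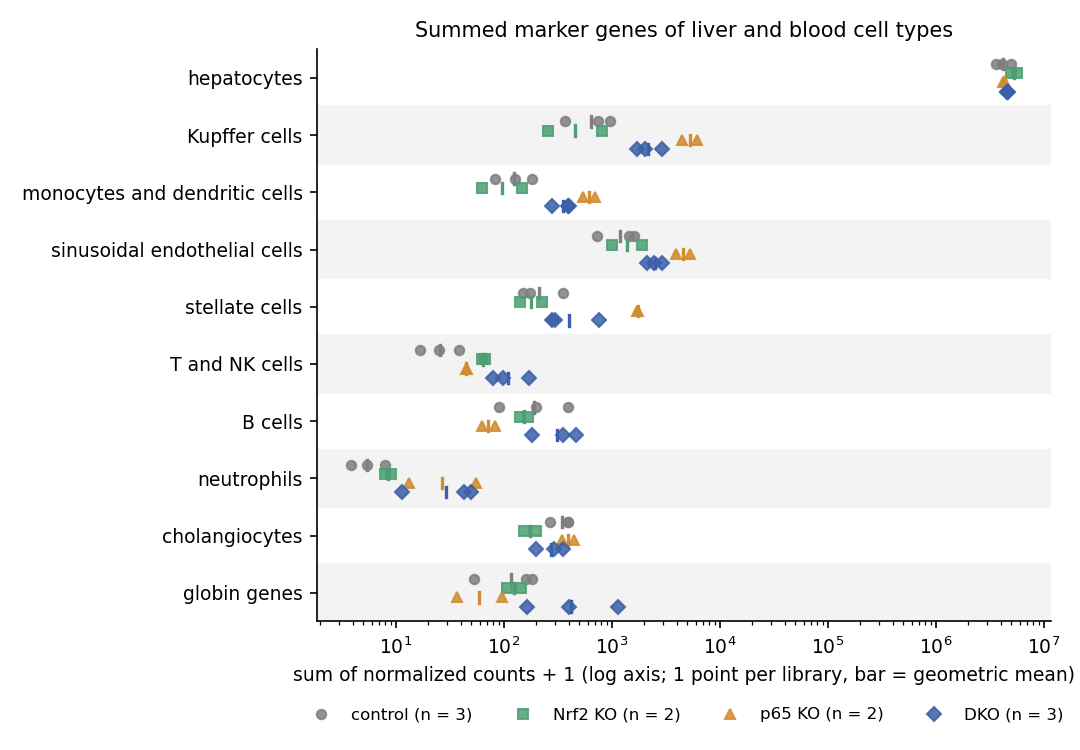
Summed normalized counts plus 1 (log axis) of 9 lists of cell markers and of the globin genes in the 10 libraries, with points for libraries and bars for geometric means of the 4 genotypes. Kupffer, endothelial and stellate sums are highest in the 2 p65 KO libraries, and the globin sum is highest in DKO mouse 1 and DKO mouse 2.

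Among acute phase proteins 3 of 31 were called lower, Serpina3c with Serpina3m and Socs3, and the median was 0.14. Serpina3m read 17376 and 19736 in p65 KO and 5614, 9234 and 10182 in DKO (-1.15 ± 0.224, a call lost without either p65 KO mouse or DKO mouse 1), while the summed Serpina3 genes, which are close copies, read 317611 and 378225 against 562177, 489537 and 458146 (log2 difference 0.53, exact permutation p = 0.1). Socs3, which shuts off cytokine receptor signalling, read 3963 and 807 in p65 KO and 158, 181 and 270 in DKO. The p65 KO mice were far apart, and without p65 KO mouse 1 the value was -1.99 and the call was lost, as it was without any of the DKO mice. Of 32 NF-κB targets, 1 was called lower (median -0.31). That gene was Vcam1, an adhesion molecule, at 222 and 164 against 32.6, 55 and 24 (-2.37 ± 0.47, adjusted p = 0.0236), a call that was lost without p65 KO mouse 1 or 2 and without DKO mouse 1 or 3. Vcam1 is also expressed by endothelial and Kupffer cells, whose marker sums are given above.

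Partners and repressors of Nrf2 were represented by 9 genes, of which 2 were called lower. Bach1, which competes with Nrf2 for its elements, read 3284 and 2469 in p65 KO and 813, 1299 and 1238 in DKO, all below the 1370 to 1419 of control (-1.37 ± 0.216, adjusted p = 0.0102). Maff, a small Maf partner, read 577 and 253 against 92.6, 194 and 120. Its p65 KO values were far apart, and the call was lost without p65 KO mouse 1, DKO mouse 1 or DKO mouse 3. Bach1 lost its call without p65 KO mouse 1, where the value was -1.15.

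Of 40 genes of cytochrome P450 drug metabolism, 4 were called lower and 0 higher (median -0.34), beside 0.968% and 0.814% of all genes tested. The 4 were the xenobiotic receptor CAR, encoded by Nr1i3, and 3 enzymes. Nr1i3 read 6446 and 5794 in p65 KO and 1329, 1384 and 2148 in DKO, and fell in Nrf2 KO as well (-1.92 ± 0.18 and -1.22 ± 0.188, adjusted p = 0.000791 and 0.0172). Cyp2a5, the coumarin hydroxylase, read 28927 and 36009 against 2149, 2538 and 9577. DKO mouse 3 was well above the other DKO mice, and control lay at 4659 to 10066 (-2.77 ± 0.578, adjusted p = 0.0293). Cyp2e1, which oxidises ethanol, read 152799 and 186241 against 71658, 61378 and 110552 (-1.06 ± 0.223), and Cyp2c37 differed by -1.15 ± 0.251. The calls of these last 3 genes were lost without either p65 KO mouse, without DKO mouse 1 and without DKO mouse 2. Hsd3b3, a hydroxysteroid dehydrogenase, read 7720 and 8924 in p65 KO and 2909, 2603 and 2950 in DKO. Control (8375 to 8812) and Nrf2 KO (10294 and 10044) were close to p65 KO, and all 3 DKO values were below them (-1.56 ± 0.108, adjusted p = 6.83e-05; difference between the effects -1.81 ± 0.152, adjusted p = 0.000679). Its close copy Hsd3b2, named here after its values were seen, went the other way, from 1661 and 1586 in p65 KO to 6910, 6672 and 4069 in DKO (1.86 ± 0.202, adjusted p = 0.00137; difference between the effects 1.74 ± 0.274, adjusted p = 0.0281). The sum of both copies read 9381 and 10510 against 9819, 9275 and 7019, so that the groups overlapped (log2 difference -0.20, exact permutation p = 0.5). Reads of a copy may be counted to the other, and a fall of Hsd3b3 cannot be told apart from a shift of reads between the copies.

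Fgf21, a hormone that hepatocytes release in fasting and stress, read 366 and 226 in p65 KO and 22.1, 15.7 and 25.2 in DKO. The 3 DKO values were close together and 14.1-fold below the p65 KO mean (-3.81 ± 0.314, adjusted p = 0.000279), and the effect in Nrf2 KO had the same sign (-1.58 ± 0.293, adjusted p = 0.0411). The difference of -2.23 ± 0.42 missed the threshold (adjusted p = 0.052). Psat1, an enzyme of serine synthesis, read 150 and 100 against 6.31, 6.73 and 30.9 (-3.10 ± 0.575), and it lost its call without either p65 KO mouse or without DKO mouse 1. These were the 2 of 19 integrated stress response genes that were called (median -0.30). Ppara, the receptor that drives fatty acid oxidation, read 5161 and 3709 against 1423, 2409 and 2109 (-1.16 ± 0.252). Cyp4a31, a fatty acid hydroxylase, was higher here, at 123 and 87.9 against 188, 282 and 563, and lower in Nrf2 KO than in control (1.71 ± 0.424 and -2.24 ± 0.411, difference 3.94 ± 0.589, adjusted p = 0.0221). Ppara lost its call without any library except DKO mouse 2, and Cyp4a31 without any except DKO mouse 1. The 33 genes of fatty acid oxidation had 2 called lower, 1 called higher and a median of -0.01.

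Other metabolic lists held few calls. No gene was called among 20 of lipid synthesis (median 0.44), 23 of cholesterol synthesis (median 0.06) or 17 of bile acid metabolism (median -0.01). Scd1, a fatty acid desaturase, read 200014 and 257411 in p65 KO and 315026, 192168 and 789279 in DKO, so that the groups overlapped (0.92 ± 0.5, adjusted p = 0.303). Fasn, the fatty acid synthase, overlapped likewise, with 21704 in DKO mouse 2 (0.78 ± 0.369, adjusted p = 0.242). Of 20 genes of glucose metabolism 1 was called higher (median 0.32). It was G6pc1, the enzyme that releases glucose from the liver, at 7968 and 7281 in p65 KO and 37562, 42099 and 29690 in DKO (2.26 ± 0.445, adjusted p = 0.0233), with a wide range of 11361 to 38693 in control. Its call was lost without either p65 KO mouse or without DKO mouse 1.

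Major urinary proteins, small pheromone-binding proteins that male liver secretes in bulk, rose in DKO. All 22 tested genes had point estimates above 0 (median 2.39), and 13 were called higher, against 0.814% of all genes. The summed family read 1397750 and 1722150 in p65 KO, and 7009760, 3983400 and 6502040 in DKO, and the latter exceeded control at 2741520 to 3705420 (log2 difference from p65 KO 1.87, exact permutation p = 0.1). The family shares long stretches of sequence, so reads of a copy may be counted to another and the sum is firmer than single genes. Among the 8 called genes with a promoter window, the 28 pairs of windows were 47.0% to 98.0% identical, with a median of 81.2%, and 10 pairs reached 90%.

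Mup7 read 365765 and 433367 in p65 KO and 2159110, 1405440 and 1795320 in DKO (2.16 ± 0.256, adjusted p = 0.00266; difference between the effects 2.37 ± 0.345). Mup12 read 3852 and 4867 against 16644, 12898 and 12745. DKO was slightly above control, at 10531 to 12415, while Nrf2 KO was as low as p65 KO, at 3071 and 4075 (1.69 ± 0.182 here, -1.70 ± 0.182 in Nrf2 KO, difference 3.40 ± 0.258, adjusted p = 0.000357). Mup15 and Mup17, whose windows are printed above, varied far more. Mup15 read 394 and 3442 in p65 KO and 351193, 15497 and 495616 in DKO, and Mup17 read 487 and 1318 against 61599, 3127 and 151666. DKO mouse 2 was the lowest of its group for both, and the SE was correspondingly large (7.23 ± 1.59 and 6.32 ± 1.36, adjusted p = 0.0342 and 0.0331). The number of called Mup genes fell to 2 without p65 KO mouse 1 and to 3 without p65 KO mouse 2, and was 6 when the DKO and p65 KO libraries were fitted alone. For 9 Mup genes the difference between the effects had an adjusted p of at most 0.05.

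**Figure D5:**
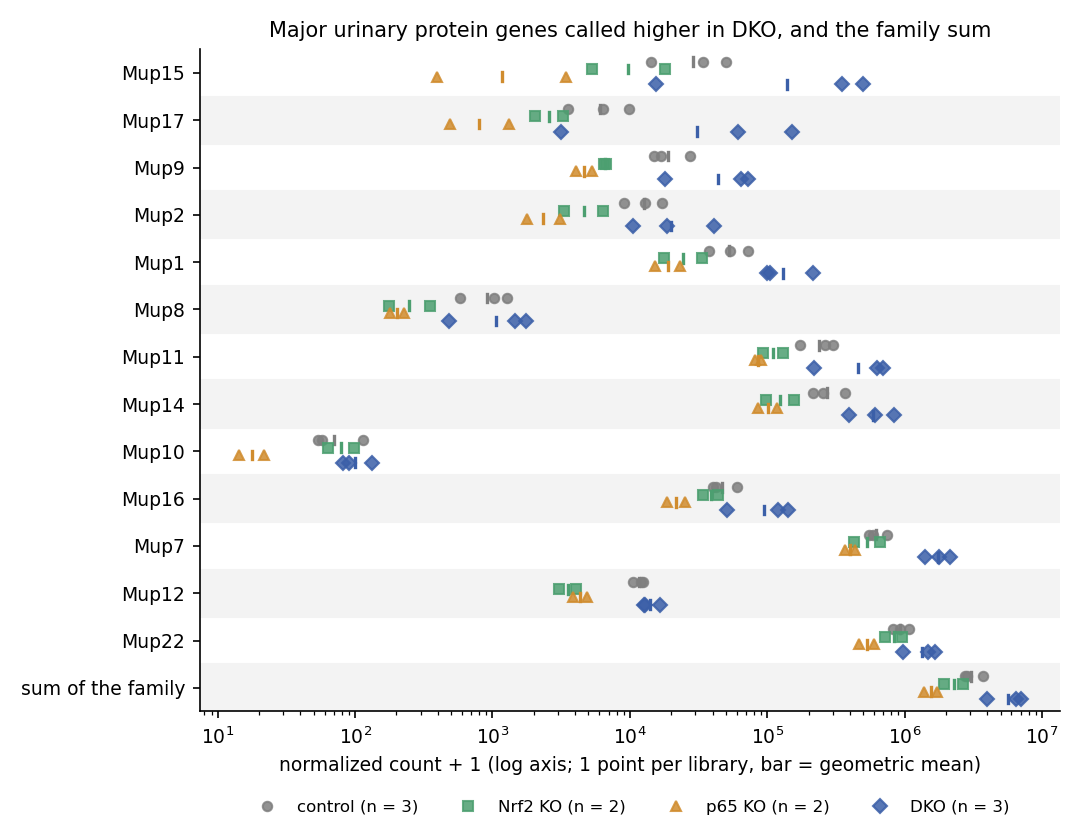
Normalized counts plus 1 (log axis) of the 13 major urinary protein genes called higher in DKO and of the family sum in the 10 libraries, with points for libraries and bars for geometric means of the 4 genotypes. In every row the 3 DKO points lie to the right of the 2 p65 KO points, and the spread within DKO is widest for Mup15 and Mup17.

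Male-biased targets of growth hormone had 2 of 18 called higher (median 0.42), Mup11 and Serpina1e. Serpina1e, an alpha-1 antitrypsin gene, read 213918 and 226396 in p65 KO and 740976, 701433 and 575479 in DKO (1.61 ± 0.242, adjusted p = 0.00903). Female-biased targets had 1 of 19 higher and 1 lower (median -0.91). That median was -0.47 without DKO mouse 1 and -1.79 without DKO mouse 3. Cyp17a1, the steroid 17-alpha-hydroxylase, read 129 and 178 against 1661, 534 and 1960 (3.17 ± 0.541), and Abcd2, a peroxisomal transporter of fatty acids, read 1100 and 947 against 457, 139 and 151 (-2.03 ± 0.468). Serpina1e and Cyp17a1 lost their calls without either p65 KO mouse, and Abcd2 lost its call without any library except DKO mouse 1.

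Some genes that were lower in p65 KO than in control were higher in DKO than in p65 KO. Plekhb2, a pleckstrin-homology protein of endosomes, read 40.6 and 39.7 in p65 KO and 262, 663 and 316 in DKO, beside 484 to 611 in control and 546 and 597 in Nrf2 KO. The 2 p65 KO libraries were the lowest, and DKO mouse 1 and DKO mouse 3 lay between them and control (3.36 ± 0.392, adjusted p = 0.00244; difference between the effects 3.30 ± 0.498). Dhrs9, a retinol dehydrogenase, read 19.3 and 6.62 against 155, 102 and 73.2, still below the 236 to 305 of control, and lost its call without p65 KO mouse 2 (3.09 ± 0.443; difference between the effects 4.24 ± 0.568). Of 14 tight junction genes 2 were called higher (median 0.27). They were Cldn1, a sealing claudin, at 1385 and 924 against 2762, 2269 and 2052 (1.03 ± 0.192), and Tjp3, a scaffold protein, at 242 and 154 against 559, 376 and 408 (1.18 ± 0.226). Both remained below every control library, and both calls were lost without p65 KO mouse 2 or without DKO mouse 1.

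Arntl, which encodes the clock activator BMAL1, read 30.5 and 21.7 in p65 KO and 270, 132 and 130 in DKO. The DKO values were higher than those of p65 KO and lower than the 498 to 1130 of control (2.77 ± 0.546, adjusted p = 0.0233), and the call was lost without either p65 KO mouse or DKO mouse 1. Of the 6 clock genes that peak with Arntl 1 was called (median 0.73), and of the 13 that peak with Per2 none was (median -0.80). Tef, an output factor that peaks with Per2, read 7850 and 7943 in p65 KO, 3081, 4730 and 5038 in DKO and 815 to 2268 in control. Beyond the morning the hour at which each mouse was killed is not given in the sources used here, and its part in these values was not tested.

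Some other genes with large changes belong to no list. Atp4a, the alpha subunit of a proton-potassium pump known from stomach, read 10.2 and 10.4 in p65 KO and 216, 66.2 and 150 in DKO (3.79 ± 0.541, adjusted p = 0.008). Mmd2 read 43.7 and 28.4 against 701, 109 and 283, a wide DKO range (3.34 ± 0.672). Bhlha15, a transcription factor of secretory cells, read 237 and 77.5 against 17.9, 21.3 and 19.5 (-3.0 ± 0.466). Atp4a and Mmd2 lost their calls without either p65 KO mouse and Bhlha15 without p65 KO mouse 1. Among listed genes, Gadd45a, a growth arrest gene that responds to stress, read 420 and 434 against 108, 109 and 259 (-1.43 ± 0.327), and it was 1 of 2 genes called among 21 immediate early and dissociation stress genes (median -0.12), with the call lost without any library except DKO mouse 3.

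Few genes of mitosis and DNA replication were called. Of 53 tested, 1 was called lower and the median was -0.27, and none of the 9 proliferation genes that the study singled out was called. Ccne1, cyclin E1, which drives entry into S phase, read 197 and 304 in p65 KO and 55.8, 48.2 and 80.1 in DKO (-2.03 ± 0.402, adjusted p = 0.0235), above the 19.6 to 29.8 of control, and the call was lost without either p65 KO mouse or without DKO mouse 1. Mki67, a marker of cycling cells, read 65 and 92.6 against 44.2, 40.4 and 85.8 (-0.47 ± 0.405, adjusted p = 0.517). Cdk1, the mitotic kinase, read 62 and 108 against 44.2, 60.6 and 99.6 (-0.32 ± 0.45, adjusted p = 0.707). The groups overlapped for both, as DKO mouse 3 had the highest value of its group. The summed list read 8720 and 10154 in p65 KO and 5957, 4960 and 10956 in DKO, and with DKO mouse 3 left out the median of the list was -0.88. Control, at 4389 to 5478, was below both p65 KO libraries and overlapped DKO.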

How the data were processed

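Per the labels and the paper's methods, poly-A RNA of freshly isolated hepatocytes was prepared with the TruSeq stranded kit and sequenced single-end. The authors quantified reads with Salmon 1.10.3 against GRCm39 and tested with DESeq2 1.42.1. The deposited table holds estimated counts per gene as whole numbers and, although its name calls it normalized, its totals differ between libraries and it was treated as not normalized. Column names gave the mouse of each column. The main test was the quasi-likelihood test of edgeR (version 4.0.16, under R version 4.3.3), with TMM scaling, a filter of 10 counts summed over 10 libraries and 1 model of the 4 genotypes, so that the spread is shared. P-values were adjusted by Benjamini-Hochberg over all 13641 genes. On simulated data for DKO against p65 KO (13495 genes), 92% of genes changed by 1.5 and 99% of genes changed by 3 on the log2 scale were called, and 7 unchanged genes were called too. The changed genes had a mean of at least 50 counts and the noise was drawn from the model's own fitted spread. These shares therefore hold for data that follow the model and do not measure how calls hold when a mouse is left out. The difference between the effects is DKO minus p65 KO, less Nrf2 KO minus control. Named genes were the targeted genes, the 15 largest falls and rises with a mean of at least 50, at most 6 called genes of a list by p (where none was called, the 2 with the highest mean), the 5 with the smallest p of the difference, and 9 proliferation genes of the study. Some items are not reported here. The members and the 29 pathway and 10 marker lists were chosen with earlier results of these data known. Of 665 list members 3 were not matched. Replicates of a group differed by more than counting noise (chi-square per degree of freedom 53.9 to 204). Alternatives were DESeq2 1.42.0, limma 3.58.1, other scalings and filters, a replicate block and leaving out each mouse. For named genes and lists in DKO against p65 KO, only p65 KO and DKO mice were left out. Promoter windows are from RefSeq (GRCm38.p6), and gene positions were not converted between builds.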

Additional observations from a re-analysis of the deposited data

Results flagged for a closer look

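For 21 named genes the effect of Nrf2 loss differed with p65 by a direct test, the contrast of DKO minus p65 KO with Nrf2 KO minus control (edgeR's quasi-likelihood test, Benjamini-Hochberg adjusted over all genes). The value given for each is that difference on the log2 scale.

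Among genes more negative without p65, Corin differed by -9.97 (adjusted p = 0.027), Gm4841 by -7.58 (7.89e-05), Gbp9 by -2.77 (0.0316), Gbp2 by -2.56 (0.0459), Usp18 by -2.08 (0.0106), Serpina3m by -1.92 (0.0316), Hsd3b3 by -1.81 (0.000679, with its close copy Hsd3b2 at 1.74) and Irgm2 by -1.59 (0.0325). In Tmem51 and Eno1b the difference came from the other side of the contrast. Tmem51 read 605 and 859 in Nrf2 KO, 96.1 to 115 in control, 186 and 130 in p65 KO and 77.4 to 109 in DKO (difference -3.59, adjusted p = 0.000806). Eno1b, a copy of the enolase gene, read 8624 and 9629 in Nrf2 KO and at most 65.2 in the other 8 libraries (difference -7.25, adjusted p = 0.00287). Its parent gene Eno1, named here after its values were seen, read 6399 and 6870 in Nrf2 KO, 14164 to 16354 in control, 12905 and 16948 in p65 KO and 16117 to 20364 in DKO (difference 1.52, adjusted p = 0.0197). The sum of both copies was 15023 and 16498 in Nrf2 KO and 14218 to 16419 in control, so that a rise of Eno1b cannot be told apart from a shift of reads between the copies.

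Among genes more positive without p65, the major urinary protein genes differed by 5.06 (Mup9, adjusted p = 0.0194), 4.70 (Mup2, 0.0316), 4.46 (Mup8, 0.0316), 3.95 (Mup1, 0.0227), 3.73 (Mup14, 0.0123), 3.72 (Mup11, 0.0316), 3.40 (Mup12, 0.000357) and 2.37 (Mup7, 0.0215). Dhrs9 differed by 4.24 (0.0123), Cyp4a31 by 3.94 (0.0221) and Plekhb2 by 3.30 (0.0227).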

How the results depend on the processing

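DESeq2 called 453 genes in DKO against p65 KO (257 lower, 196 higher), scaling to library totals 504 (418 lower) and the 5 DKO and p65 KO libraries fitted alone 105 (60 lower, 45 higher), beside 243 (132 and 111). With a library left out the count lay between 70 and 294, with 42 to 148 lower and 21 to 146 higher. The 75 calls of Nrf2 KO against control became 135 with DESeq2 and 18 to 84 with a library left out, and the 62 calls of the difference between the effects became 249 with DESeq2, 118 with library totals, 137 without the filter and 8 to 119 with a library left out. Nfe2l2 was at 0.82 with library totals and at 1.1 with the 5 libraries alone, in both not called, and between 0.92 and 1.23 with a library left out. Where a p65 KO library is left out, the lone mouse is assumed to vary like the other groups. Replicate numbers did not pair the mice (correlations of deviations between -0.232 and 0.113), and with the replicate block 181 genes were called (106 lower, 75 higher). Interferon calls, 13 in all, became 21 with library totals and 8 with the block, MHC class II calls, 2 in all, lay between 0 and 5, and drug metabolism calls, 4 in all, between 1 and 9. Over the named genes 1320 values kept their side of the threshold, 203 lost a call, 7 gained it and 0 reversed.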

Other observations

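Of the 60 genes called lower in Nrf2 KO against control, 50 had a point estimate below 0 in DKO against p65 KO, and of the 15 called higher 10 had a point estimate above 0.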
